A study of Mus musculus with 40 samples.

Results

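These data describe how the transcriptome of mouse macrophages labelled Otulin knock-out moved between 3 and 6 h after exposure to lipopolysaccharide (LPS). The comparison sets the 4 libraries labelled Otulin knock-out at 6 h after LPS against the 4 labelled Otulin knock-out at 3 h, chosen by title, which is 8 of the 40 libraries of the series. The cells were primary macrophages differentiated from bone marrow of mice with L929 cell supernatant, which supplies the growth factor M-CSF. Knock-out (KO) cells had the genotype OtulinFL/FL LysMCreTg/WT, that is, both Otulin alleles carried loxP sites and Cre recombinase was expressed from the Lyz2 (LysM) locus of myeloid cells. Wild-type (WT) cells, which appear below only beside the KO values, were OtulinFL/FL without Cre. All LPS samples received 500 ng/ml of ultrapure LPS from Salmonella minnesota. RNA was sequenced from the 3′ end of transcripts (QuantSeq 3′ mRNA FWD) before LPS and at 3, 6, 12 and 24 h, with 4 biological replicates for each genotype and time. The age of the mice is not given in the sources used here. No group had Cre with unfloxed Otulin, so in any value set beside WT the absence of Otulin cannot be told apart from Cre itself. Within the KO libraries both times share the same genotype.

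LPS is a component of the outer membrane of Gram-negative bacteria that macrophages sense through the receptor TLR4. TLR4 signals first through MyD88, which drives NF-kB and the MAP kinases and a fast wave of cytokine and chemokine transcripts, and then through TRIF, which drives IRF3 and the gene for interferon beta. Secreted interferon acts back on the cells through JAK kinases and STAT factors and turns on antiviral genes, many of which carry an interferon-stimulated response element (ISRE) at their start. OTULIN removes linear ubiquitin chains, which scaffold signalling from TLR and TNF receptors.

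The 8 libraries held between 3615155 and 6829303 counts, with a median of 4392798. Levels are given as CPM, the counts of a gene per 1000000 counts of its library, scaled by the TMM method. A gene was said to rise or fall, or to be called, where edgeR's quasi-likelihood test gave a Benjamini-Hochberg adjusted p under 0.05 over all genes tested, and changes are log2 fold changes of 6 h over 3 h with their standard error (SE). The targeted gene, Otulin (ENSMUSG00000046034), was counted at 31.3, 33.3, 31.7 and 33.4 CPM in the 3 h libraries and 33.4, 29.4, 28.9 and 32.2 CPM in the 6 h libraries, and its step was −0.07 ± 0.12 log2 (adjusted p = 0.705). WT libraries held 47.4, 44.7, 43.7 and 36.3 CPM of Otulin at 3 h and 35.6 to 42.2 CPM at 6 h. KO minus WT was −0.43 ± 0.097 log2 at 3 h (adjusted p = 0.0406) and −0.28 ± 0.10 at 6 h (adjusted p = 0.211), so the tag was lower in KO at 3 h, did not pass the test at 6 h and was far from absent. A 3′ tag can lie outside the deleted part of the gene, so this level does not check the label. The label macrophage was checked against 13 markers, all of which were measured. Their summed level was 7536 to 9023 CPM at 3 h and 8998 to 9904 CPM at 6 h. Lyz2, which encodes lysozyme, was at 2087, 2299, 1933 and 2012 CPM and 2037, 2534, 2316 and 2377 CPM, with a step of 0.15 ± 0.11 (adjusted p = 0.302) that was −0.07 with library totals alone. Markers of T, B and NK lymphocytes summed to 1.43 to 4.08 CPM in all 8 libraries and those of mast cells and basophils to 0.276 to 2.83 CPM, with 6 of the latter 10 genes at 0. The 11 red cell and platelet precursor markers summed to 809.9 to 1057 CPM at 3 h and 936.8 to 1068 CPM at 6 h. Only 1 of these 11 was measured in the test, with a step of 0.08 log2 that did not pass, and 3 were at 0. This marker set includes Pf4, which is also on the CXC chemokine list, so its sum does not show that such precursors were present. The 11 stromal cell and fibroblast markers summed to 1.58 to 4.51 CPM and 2.58 to 4.13 CPM. Only 1 of these stromal markers was measured in the test, and it rose by 4.48 log2. Its level lay within those low sums, so the size of its step is uncertain. In bulk RNA a change in the number of cells of one kind and a change of RNA per cell cannot be told apart.

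Between 3 and 6 h, 4885 of 12037 genes tested changed (40.6%), 2282 upward (19%) and 2603 downward (21.6%). The median step over all genes tested was −0.06 log2, with a median of 0.69 among genes that rose and −0.78 among those that fell. More than 2-fold rises numbered 683 (5.67%) and more than 2-fold falls 924 (7.68%). Rises over 4-fold numbered 142 (1.18%) and falls over 4-fold 162 (1.35%). The 4 libraries of 6 h and the 4 of 3 h did not overlap for 4907 genes (40.8%), among them 4307 of the 4885 called. On a principal component analysis of the 8 libraries the first component held 63.5% of the variance, with the 3 h libraries at −36.3 to −31.7 and the 6 h libraries at 32.9 to 35.5. The summed level of the genes that rose went from 326500 to 537500 CPM, while that of the genes that fell went from 151600 to 97500 CPM. The direction of both sums was fixed, because the genes were chosen by their direction in these same libraries. CPM scaled by TMM are also not shares of all transcripts, so the sums are given as a description. The split of directions depended on the scaling. TMM gave 46.7% of called genes as higher, whereas library totals alone moved the median of all genes to −0.27 log2 and gave 25.2% as higher (1494 higher, 4424 lower).

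**Figure D1:**
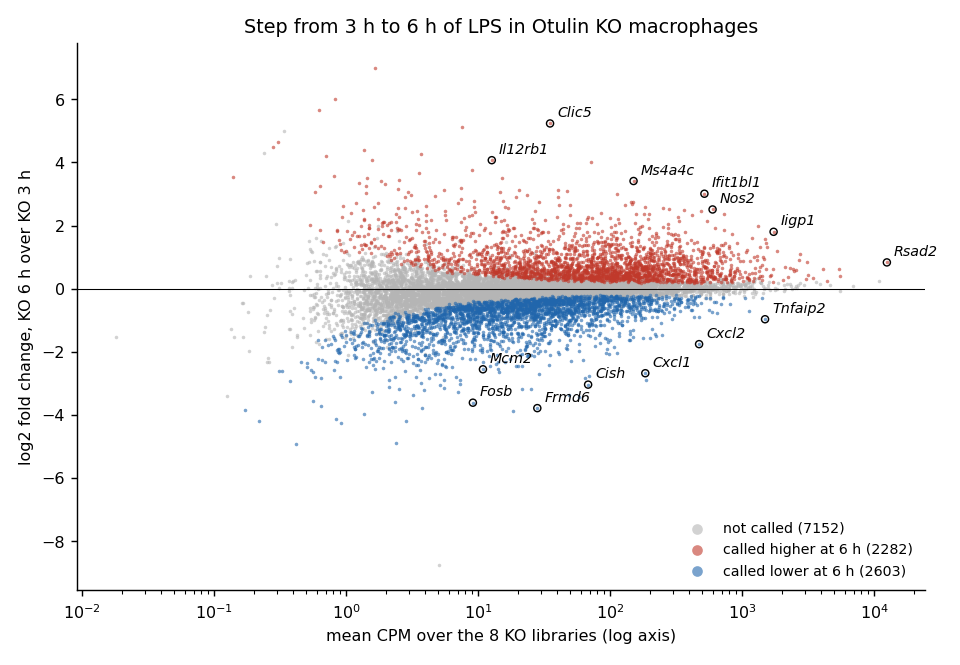
Each point is 1 of the 12037 genes tested, by its mean CPM over the 8 KO libraries (x, log axis) and its log2 fold change of 6 h over 3 h (y), with 2282 genes called higher in red and 2603 called lower in blue. Interferon-induced genes such as Ifit1bl1 and Iigp1 lie above 0 at high levels and Rsad2 is the highest labelled gene by level, while Cish, Frmd6 and Cxcl1 lie far below 0.

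Interferon-induced genes rose together. All 39 measured antiviral effectors rose, against 19% of all genes tested, with a median step of 1.11 log2 beside −0.06 for all genes. So did all 17 measured guanylate-binding proteins and immunity-related GTPases, which attack vacuoles that hold microbes, with a median of 1.72. Of 18 Schlafen and IFI200 genes 14 rose and 4 did not pass the test, with a median of 0.93. With library totals alone as the scaling, 37, 16 and 13 members of these lists were still called higher and none was called lower. As with all lists here, the members were chosen with earlier results of these data known, so the counts are a description.

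All 10 guanylate-binding protein and GTPase genes with an entry in the RefSeq promoter table (GRCm38.p6) held the letters GAAANNGAAA of an ISRE, on either strand, within 250 bases before to 50 after the gene's start. So did 17 of 32 antiviral effectors and 11 of 17 Schlafen and IFI200 genes with an entry, against 3.99% of all 27025 genes in the table. The share was 8.69% among genes called higher, 13.8% among those higher by more than 2-fold, 3.29% among genes not called and 2.56% among genes called lower. A match is a description of the letters and not evidence of binding. The windows of 3 members with large rises are printed below from 5′ to 3′ on the gene's strand, with the match in capitals. They are Ifit1bl1 (chr19:34601919-34602218, minus strand), Ifi213 (chr1:173599223-173599522, minus strand) and Tgtp1 (chr11:48992197-48992496, minus strand). The match begins 104, 73 and 77 bases before the start.
Ifit1bl1: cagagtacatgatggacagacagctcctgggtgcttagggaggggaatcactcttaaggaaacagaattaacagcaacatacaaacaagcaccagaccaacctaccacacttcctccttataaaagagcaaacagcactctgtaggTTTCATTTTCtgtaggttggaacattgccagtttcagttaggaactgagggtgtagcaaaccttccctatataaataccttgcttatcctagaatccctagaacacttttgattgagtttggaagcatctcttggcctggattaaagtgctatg
Ifi213: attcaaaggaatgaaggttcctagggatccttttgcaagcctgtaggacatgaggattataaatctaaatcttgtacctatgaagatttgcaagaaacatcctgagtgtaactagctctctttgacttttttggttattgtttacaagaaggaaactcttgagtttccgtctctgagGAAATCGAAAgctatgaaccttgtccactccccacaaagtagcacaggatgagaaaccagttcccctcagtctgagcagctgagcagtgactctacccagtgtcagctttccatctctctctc
Tgtp1: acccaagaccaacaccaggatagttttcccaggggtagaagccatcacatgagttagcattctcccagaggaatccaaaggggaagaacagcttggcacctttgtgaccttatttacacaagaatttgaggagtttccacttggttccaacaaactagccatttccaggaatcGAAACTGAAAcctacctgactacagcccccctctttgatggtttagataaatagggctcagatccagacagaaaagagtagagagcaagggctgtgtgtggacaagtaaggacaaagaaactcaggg

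Ifit1bl1, a member of the IFIT family of RNA-binding antiviral proteins, was at 135, 102, 117 and 104 CPM at 3 h and 906, 958, 937 and 895 CPM at 6 h, a step of 3.01 ± 0.092 log2 (adjusted p = 1.30e-17). The 2 groups of libraries were far apart, and at 0 h the mean had been 0.683 CPM. Its neighbour in the family, Ifit1bl2, rose by 3.78 ± 0.27 from 1.26 to 16.9 CPM. These copies are close in sequence and may share tags, so the split between them is less certain. Ifi44, an interferon-induced cytoplasmic protein, rose by 2.52 ± 0.12 and Isg20, an exonuclease that degrades viral RNA, by 2.08 ± 0.093. Zbp1, a sensor of Z-form nucleic acids that can start necroptosis, rose by 1.49 ± 0.11. Phf11b, Phf11d and Phf11a rose by 2.14 ± 0.099, 1.71 ± 0.090 and 3.13 ± 0.17, and these too are close copies.

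Rsad2, which encodes viperin, an enzyme that makes a chain-terminating nucleotide, was the gene with the largest gain in CPM. It stood at 9439, 9849, 8009 and 8631 CPM at 3 h and at 13986, 17093, 16352 and 16768 CPM at 6 h. Every 6 h library was above every 3 h library, and the step of 0.83 ± 0.14 log2 was below the list's median of 1.11. Cmpk2, its neighbour in the genome and a nucleotide kinase, rose by 1.11 ± 0.12 from 1731 to 3744 CPM, and Ifit1 by 0.61 ± 0.096 from 3241 to 4955 CPM. Actb, the cytoskeletal actin gene, was also among the 6 largest gains, from 4276 to 6659 CPM (0.63 ± 0.11).

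Gbp4, a guanylate-binding protein, was at 77.3, 50.2, 46.5 and 61.2 CPM at 3 h and 303, 303, 300.1 and 316 CPM at 6 h, a step of 2.37 ± 0.13 log2. Iigp1, an immunity-related GTPase, was at 1022, 681, 700.0 and 681 CPM and 2824, 2589, 2754 and 2629 CPM (1.80 ± 0.14). In both genes replicate 1 was the highest of the 3 h libraries, and the 6 h libraries lay close together. Gbp6, Gbp9, Gbp8 and Tgtp1 rose by 2.04 ± 0.12, 1.96 ± 0.15, 1.87 ± 0.21 and 1.92 ± 0.094. The family has close copies, among them Tgtp1 and Tgtp2, so values of single members are less certain. Among Schlafen and IFI200 genes, Slfn4 rose from 10.0 to 84.9 CPM (3.09 ± 0.25) and Ifi213 from 24.8 to 201 CPM (3.01 ± 0.12). Ifi208, Ifi206 and Ifi209 rose by 2.75 ± 0.13, 2.37 ± 0.11 and 2.13 ± 0.093. IFI200 proteins sense DNA or regulate transcription, and the roles of most Schlafen proteins in macrophages are less settled.

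Ifnb1, the gene for interferon beta, was at 11.1, 9.02, 8.79 and 9.09 CPM at 3 h and 1.57, 0.669, 4.59 and 2.76 CPM at 6 h, a step of −1.97 ± 0.45 log2 (adjusted p = 0.00138), with no overlap between the times. The counts were low, 189 and 35 over 4 libraries each. Among IRF factors, STATs, interferon receptors and JAK kinases 13 of 23 rose and 5 fell, with a median of 0.34. The shares over all genes tested were 19% and 21.6%. Irf7, the factor that amplifies interferon production, went from 114, 127, 118 and 104 CPM to 398, 455, 409 and 484 CPM (1.91 ± 0.12). Stat3, which serves IL-6 and IL-10 receptors, rose from 317 to 685 CPM. Stat5a fell, with a step of −1.16 ± 0.099, and Ifngr1, a chain of the receptor for interferon gamma, at −1.36 ± 0.087.

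Genes of antigen presentation and its proteasome rose too. Of 17 measured MHC class I presentation genes 12 rose, 0 fell and 5 did not pass the test (median 0.84). Among all genes tested 19% rose and 21.6% fell. Tap1, a subunit of the peptide transporter, went from 313, 371, 322 and 312 CPM to 773, 837, 796 and 829 CPM (1.29 ± 0.090). H2-T22, Tapbpl and Nlrc5, the transactivator of class I genes, rose by 1.40 ± 0.11, 1.28 ± 0.15 and 1.18 ± 0.097. H2-T24 rose by 2.44 ± 0.37 from a low level of 2.99 CPM. H2 genes are close copies and share the caution above. Of 14 proteasome genes 9 rose and 0 fell, with the 3 inducible catalytic subunits Psmb10, Psmb9 and Psmb8 at 1.35 ± 0.10, 1.06 ± 0.15 and 0.94 ± 0.10 and the activator subunits Psme2 and Psme1 at 0.96 ± 0.084 and 0.89 ± 0.10. With library totals alone 5 of the 14 were called higher and 1 lower. Of 15 class II and costimulation genes 9 rose and 2 fell. Cd86, a ligand of CD28, went from 42.9, 45.1, 49.4 and 50.3 CPM to 156, 140.2, 178 and 157 CPM (1.74 ± 0.11) and Cd40 rose by 1.09 ± 0.091, while Cd83 fell, with a step of −1.46 ± 0.13, and Icosl at −0.69 ± 0.19.

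**Figure D2:**
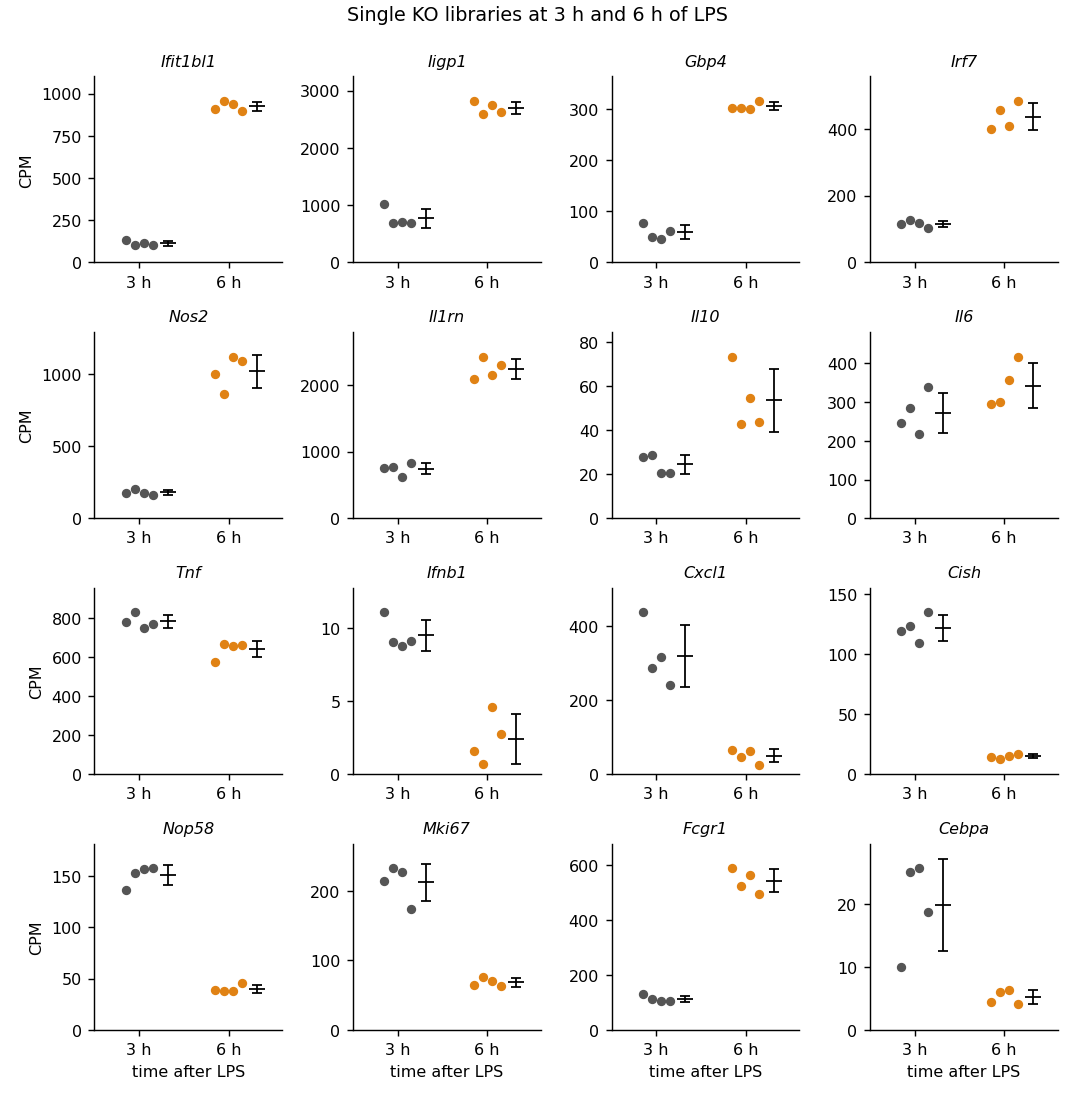
Points are single KO libraries in CPM (y, from 0) at 3 h in grey and 6 h in orange for 16 genes, with the mean and SD of the 4 libraries beside them. Ifit1bl1, Iigp1, Gbp4, Irf7, Nos2, Il1rn and Fcgr1 rose with no overlap, Ifnb1, Cxcl1, Cish, Nop58, Mki67 and Cebpa fell with no overlap, and the Il6 libraries of the 2 times overlap.

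Cytokine and chemokine genes split, beside 19% of all genes tested that rose and 21.6% that fell. Tnf was at 783, 830.3, 752 and 769 CPM at 3 h and 578, 668, 659.8 and 663 CPM at 6 h, a step of −0.29 ± 0.092 log2 (adjusted p = 0.0125). That call was lost in the fit of 40 libraries (adjusted p = 0.117), without 3 h replicate 1 (0.0603) and without 6 h replicate 1 (0.0629). Il1b was at 1263, 1399, 1048 and 1583 CPM and 985, 1206, 1052 and 1446 CPM, with overlap (−0.18 ± 0.23, adjusted p = 0.579). Il6 was at 246, 286, 217 and 338 CPM and 296, 300.1, 357 and 418 CPM, also with overlap (0.33 ± 0.17, adjusted p = 0.137). With the replicate number as a block the Il6 step was 0.34 (adjusted p = 0.0276).

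Il10, which restrains macrophage activation, went from 28.0, 28.7, 20.7 and 20.6 CPM to 73.6, 42.8, 54.7 and 43.8 CPM (1.15 ± 0.24). Il1rn, the IL-1 receptor antagonist, went from 757, 772, 624 and 823 CPM to 2088, 2424, 2141 and 2296 CPM (1.58 ± 0.13), and Il18bp, the decoy that binds IL-18, rose by 2.04 ± 0.11. The genes for IL-18 itself and IL-33 rose by 1.49 ± 0.11 and 1.50 ± 0.29, and Il18rap by 1.23 ± 0.29. Il1a fell, with a step of −0.70 ± 0.18, and the decoy receptor gene Il1r2 at −1.27 ± 0.31. Over the interleukin 1 family 6 of 11 rose, 2 fell and 3 did not pass, with a median of 1.09. Among all genes tested 19% rose and 21.6% fell. Of 13 IL-6, IL-10, IL-12 and other cytokine genes 5 rose and 4 fell, but 3 were called higher with library totals alone and without 3 h replicate 4 or 6 h replicate 1, 2 or 3. Osm, Csf1 and Clcf1 fell, with steps of −1.11 ± 0.16, −1.28 ± 0.10 and −1.33 ± 0.25. Of 10 TNF superfamily ligand genes 2 rose and 4 fell (2 fell in the fit of 40 libraries and without 3 h replicate 1, and 1 without 6 h replicate 1). Tnfsf10, the gene for TRAIL, rose from 27.3 to 143 CPM (2.39 ± 0.13), and Tnfsf8 by 0.94 ± 0.13, while Tnfsf9 fell, with a step of −1.62 ± 0.50. The call of Tnfsf9 was lost without 6 h replicate 1 (adjusted p = 0.0561).

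Cxcl1, a neutrophil attractant, was at 437, 288, 315 and 241 CPM at 3 h and 65.1, 46.8, 62.2 and 25.4 CPM at 6 h, a step of −2.68 ± 0.25 log2. Cxcl2 was at 787, 706, 656 and 770.0 CPM and 205, 201, 217 and 243 CPM (−1.76 ± 0.17), and Cxcl3 fell, with a step of −1.49 ± 0.45. For Cxcl1 and Cxcl2 every 6 h library was below every 3 h library. The call of Cxcl3 was lost without 6 h replicate 1 (adjusted p = 0.0536). Cxcl11, a ligand of the chemokine receptor CXCR3 of T cells, rose by 1.16 ± 0.13 and Cxcl16 by 0.91 ± 0.092. In all, 3 of 11 CXC chemokines rose and 4 fell, beside 19% of all genes tested that rose and 21.6% that fell. Of 12 CC chemokines 5 rose, 0 fell and 7 did not pass. Ccl8 rose from 31.5 to 129 CPM (2.04 ± 0.26), Ccl5 from 1116 to 2547 CPM (1.18 ± 0.11), and Ccl12 by 0.92 ± 0.16. Of 14 chemoattractant receptor genes 7 rose and 4 fell. The formyl peptide receptor genes Fpr1 and Fpr2 rose by 2.15 ± 0.22 and 2.07 ± 0.15. Cxcr4 fell, with a step of −2.34 ± 0.23, and the complement receptor gene C5ar1 at −0.77 ± 0.12.

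Cxcl1 and Cxcl2 each held 1 kappaB consensus match in the RefSeq promoter window, as did 4 of 10 CXC chemokine genes, 6 of 10 genes of the IL-6, IL-10 and IL-12 list and 10 of 18 NF-kB pathway genes with an entry, against 5.14% of all genes in the table. The 2 windows (GRCm38.p6, plus strand) are printed because these genes fell together. Cxcl1 lies at chr5:90890995-90891294 and Cxcl2 at chr5:90903649-90903948, the capitals are the match, which reads as a match on both strands, and it begins 71 and 97 bases before the start. The share with a match was 7.22% among genes called higher and 7.08% among genes called lower, close to each other.
Cxcl1: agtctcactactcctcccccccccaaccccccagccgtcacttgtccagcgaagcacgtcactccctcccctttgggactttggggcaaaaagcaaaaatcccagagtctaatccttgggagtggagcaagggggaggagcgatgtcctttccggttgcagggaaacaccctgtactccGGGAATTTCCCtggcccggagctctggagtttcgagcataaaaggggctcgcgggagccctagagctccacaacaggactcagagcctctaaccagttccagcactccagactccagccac
Cxcl2: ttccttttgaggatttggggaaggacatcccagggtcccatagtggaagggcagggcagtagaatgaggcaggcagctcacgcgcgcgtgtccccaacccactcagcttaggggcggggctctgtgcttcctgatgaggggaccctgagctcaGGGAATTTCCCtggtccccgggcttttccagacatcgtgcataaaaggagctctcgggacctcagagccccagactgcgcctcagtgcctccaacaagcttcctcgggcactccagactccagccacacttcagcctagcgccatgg

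Of 20 immediate early and AP-1 factors 9 fell, 4 rose and 7 did not pass, with a median of −0.28. Over all genes tested 21.6% fell and 19% rose, and counts near those shares do not set a list apart. Fosb was at 22.4, 13.5, 18.7 and 13.2 CPM at 3 h and 1.57, 0.669, 2.29 and 0.827 CPM at 6 h (−3.62 ± 0.30). Maff, Nr4a3 and Egr2 fell, with steps of −2.66 ± 0.26, −1.91 ± 0.23 and −1.37 ± 0.23, while Batf, an AP-1 factor that works with IRFs, rose by 0.85 ± 0.12. Of 23 NF-kB subunits, inhibitors and feedback genes 6 rose and 5 fell, but with library totals alone 3 were called higher. Nfkbiz, an atypical inhibitor that also activates secondary genes, was at 606, 654, 567 and 606 CPM and 329, 314, 351 and 329 CPM (−0.88 ± 0.084). Relb and Nfkbie fell, with steps of −0.76 ± 0.10 and −0.66 ± 0.096, and Traf1 and Ikbkg rose by 0.58 ± 0.10 and 0.56 ± 0.075. Dusp1, a phosphatase that turns off p38 and JNK, went from 256, 246, 203 and 237 CPM to 519, 475, 461 and 449 CPM (1.01 ± 0.13). Dusp14 fell, with a step of −2.80 ± 0.41, and of 9 MAP kinase phosphatases 1 rose and 3 fell (5 fell with library totals alone, and 1 without 3 h replicate 3, 6 h replicate 1 or 6 h replicate 3). Of 14 regulators of inflammatory mRNA decay 5 rose and 3 fell. Zfp36, the gene for tristetraprolin, which destabilises cytokine mRNAs, rose by 0.50 ± 0.086, as did Zc3h12d (1.75 ± 0.14) and Tent5c (0.99 ± 0.14). Zfp36l1 fell, with a step of −1.46 ± 0.24.

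Cish, a SOCS family gene induced by STAT5, was at 119.6, 124, 109 and 135 CPM at 3 h and 14.6, 12.7, 14.9 and 16.8 CPM at 6 h. The step of −3.04 ± 0.15 log2 was among the 12 lowest of called genes that averaged 5 CPM or more over the 8 libraries and did not overlap. Csf1 and Stat5a, named above, fell as well, and a link between these falls and that of Cish was not tested. Of 12 SOCS family and other inhibitor genes 5 rose and 3 fell, beside 19% of all genes tested that rose and 21.6% that fell. With library totals alone 3 of these 12 rose. The phosphatase genes Ptpn6 and Ptpn1 rose from 103 to 254 CPM and from 189 to 322 CPM. Of 25 Toll-like receptors, adaptors and kinases 11 rose and 5 fell. Tlr3, the receptor for double-stranded RNA, rose from 57.0 to 204 CPM (1.83 ± 0.15), and Tlr6, Tlr8 and Tlr4 by 1.19 ± 0.13, 1.11 ± 0.24 and 0.98 ± 0.12. Tlr2, the receptor for bacterial lipopeptides, fell, with a step of −0.67 ± 0.14, and Traf3 at −1.16 ± 0.13.

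Of the 16 genes of the linear ubiquitin machinery, the pathway on which OTULIN acts, 4 rose and 1 fell, with a median of 0.04 log2. Over all genes tested 19% rose and 21.6% fell, with a median of −0.06 log2, so the count of rises does not set this list apart. With library totals alone 2 rose and 3 fell, and without 3 h replicate 4 there were 2 that rose. Tax1bp1, an adaptor of the A20 complex, rose by 0.97 ± 0.11 and Otulinl, a relative of Otulin without known deubiquitinase activity, fell, with a step of −1.04 ± 0.14. Cyld, the gene for a deubiquitinase of linear and lysine-linked chains, rose by 0.43 ± 0.15, but its call was lost with library totals alone and without 3 h replicate 2, 3 h replicate 4 or 6 h replicate 2 (adjusted p = 0.251, 0.0553, 0.0559 and 0.0629).

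In the death receptor and necroptosis list 11 of 17 rose and 1 fell, with a median of 0.44. The shares over all genes tested were 19% that rose and 21.6% that fell, with a median of −0.06, and counts near those shares do not set a list apart. Mlkl, the pore-forming executor of necroptosis, was at 29.7, 27.1, 29.5 and 31.7 CPM at 3 h and 84.1, 85.0, 84.0 and 81.9 CPM at 6 h (1.49 ± 0.098), with the groups far apart. Ripk3, the kinase that activates it, was at 7.30, 9.02, 8.07 and 13.5 CPM and 6.28, 7.36, 4.01 and 9.92 CPM (−0.47 ± 0.23, adjusted p = 0.115). Its step passed the test without 6 h replicate 4 (adjusted p = 0.0283) and with library totals alone (0.0173). Casp8, a caspase gene of the death receptor pathway, rose by 1.18 ± 0.15, and Tnfrsf10b, the TRAIL receptor gene, fell, with a step of −1.27 ± 0.32. Of 16 inflammasome and pyroptosis genes 10 rose and 3 fell. Casp1 rose from 314 to 701 CPM (1.15 ± 0.067), and Mefv and Gsdmd, the latter encoding gasdermin D, by 1.14 ± 0.14 and 0.84 ± 0.11. Nlrp3, whose sensor needs a priming signal, was at 195, 174, 178 and 179 CPM and 124, 106, 145 and 123 CPM and fell, with a step of −0.54 ± 0.11. Of 14 BCL2 family genes 5 rose and 2 fell, and 3 rose with library totals alone. The pro-death gene Bcl2l11 fell, with a step of −1.56 ± 0.13, and Bid rose by 0.72 ± 0.074.

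**Figure D3:**
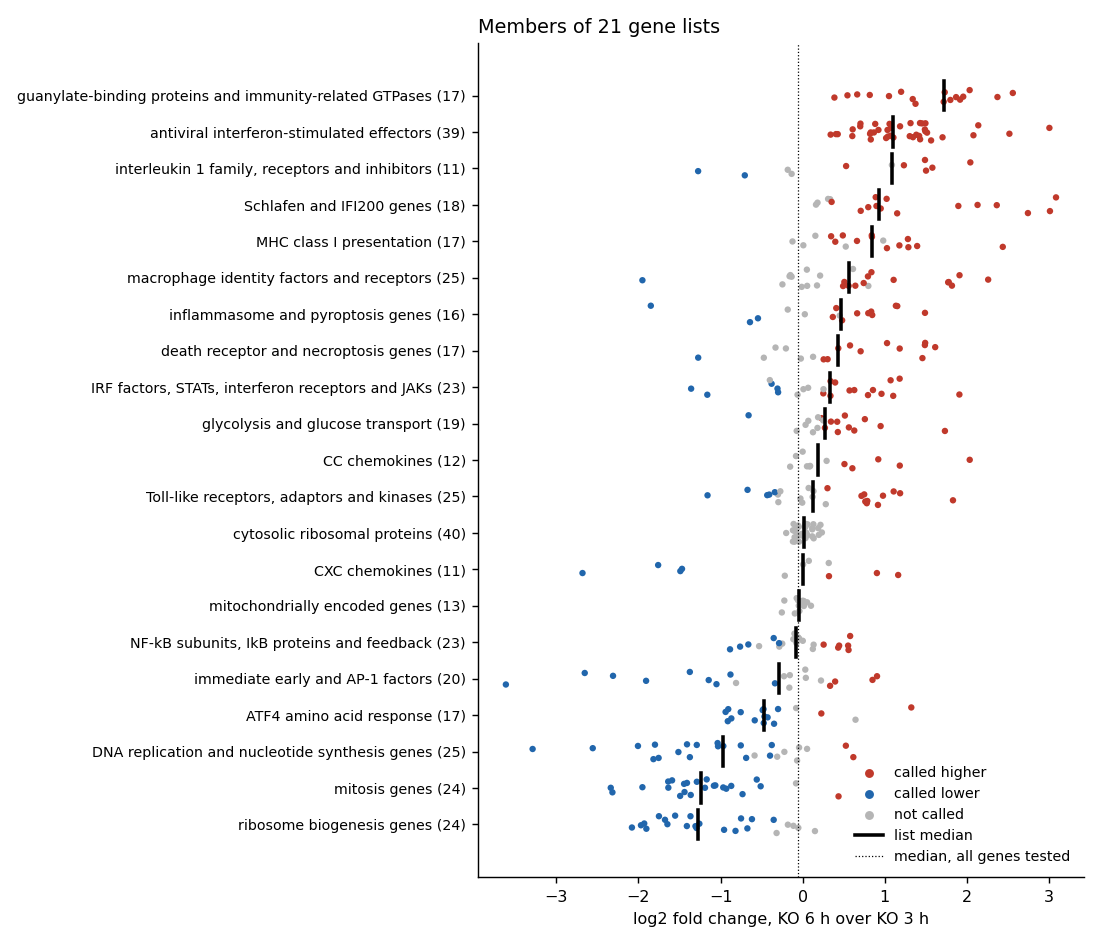
Each point is a measured member of a gene list, by its log2 fold change of 6 h over 3 h in KO (x), red where called higher, blue where called lower and grey where not called, with the number of measured members in brackets. Bars are list medians and the dotted line is the median of all genes tested: the interferon lists sit to the right (1.72 and 1.11 at the top), ribosome biogenesis (−1.28) and mitosis (−1.24) to the left, and ribosomal proteins at 0.02.

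Proliferation genes fell together. Of 24 mitosis genes 22 fell and 1 rose, against 21.6% of all genes tested that fell, with a median of −1.24 log2. Of 25 DNA replication and nucleotide synthesis genes 17 fell and 2 rose, with a median of −0.97. Mki67, which encodes the proliferation antigen Ki-67, was at 214, 233, 227 and 174 CPM at 3 h and 64.2, 76.3, 70.8 and 62.8 CPM at 6 h (−1.64 ± 0.12). Aspm, Cdc20 and Bub1, which act on the spindle, fell, with steps of −2.32 ± 0.21, −1.95 ± 0.30 and −1.59 ± 0.18. Mcm2 and Mcm7, subunits of the replicative helicase, fell, with steps of −2.56 ± 0.26 and −2.01 ± 0.17, and Rrm2, a subunit of ribonucleotide reductase, at −1.82 ± 0.27. Tpx2 rose by 0.44 ± 0.12, but not with library totals alone (adjusted p = 0.137), and Cdt1, a licensing factor that is degraded once replication starts, rose by 0.62 ± 0.10. Cdkn2d, which encodes the CDK inhibitor p19INK4d, rose by 1.78 ± 0.12 and Cdkn2c fell, with a step of −1.87 ± 0.33. Of 11 D cyclin and CDK inhibitor genes and their partners 4 rose and 3 fell. Ccnd2 and Ccnd1 rose by 0.93 ± 0.13 and 0.77 ± 0.12, and Cdk4 fell, with a step of −0.87 ± 0.14.

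Of 20 mitosis genes with a RefSeq promoter 18 held a CCAAT box (CCAAT on either strand), against 41.1% of all genes in the table. The share was as high in lists that did not fall, 12 of 13 MHC class I presentation genes and 18 of 20 cholesterol and fatty acid synthesis genes. The window of Cdc20 (GRCm38.p6, chr4:118437294-118437593, minus strand) is printed as the example with 2 matches, the first beginning 53 bases before the start. The share was 41.9% among all genes called higher and 43.7% among all called lower.
Cdc20: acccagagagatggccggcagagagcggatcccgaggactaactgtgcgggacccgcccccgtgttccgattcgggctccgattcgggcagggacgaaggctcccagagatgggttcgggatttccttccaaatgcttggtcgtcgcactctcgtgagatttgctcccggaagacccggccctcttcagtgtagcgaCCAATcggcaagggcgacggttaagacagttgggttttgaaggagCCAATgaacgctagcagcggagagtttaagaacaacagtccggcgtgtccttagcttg

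Of 24 biogenesis genes 19 fell, 0 rose and 5 did not pass, with a median of −1.28 log2. Among all genes tested 21.6% fell and 19% rose. Nop58, a core protein of box C/D small nucleolar particles, was at 136, 153, 157 and 158 CPM at 3 h and 38.6, 37.5, 37.5 and 45.5 CPM at 6 h (−1.93 ± 0.10). Dkc1, Tsr1, Gnl3 and Rrs1 fell, with steps of −2.08 ± 0.17, −1.97 ± 0.17, −1.90 ± 0.13 and −1.55 ± 0.12. None of 40 cytosolic ribosomal protein genes was called by edgeR, with steps from −0.20 to 0.24 log2 and a median of 0.02; 2 had an unadjusted p under 0.05. DESeq2, relative log expression scaling and the replicate block each called 2 higher, the fit of 40 libraries 3, the fit of 8 libraries 4, and leaving out 3 h replicate 1 or 2 called 1. With library totals alone 7 were called lower. Of 13 mitochondrially encoded genes none was called, with steps from −0.25 to 0.10; 0 had an unadjusted p under 0.05 and library totals alone called 1 lower. Of 17 genes of the ATF4 amino acid response 13 fell and 2 rose. Sars, Shmt2, Slc7a5 and Asns fell, with steps of −0.87 ± 0.13, −0.75 ± 0.16, −0.91 ± 0.20 and −0.58 ± 0.17. Wars, a tRNA synthetase gene that interferon induces, rose by 1.32 ± 0.18. Leaving out 3 h replicate 3 or 4 or 6 h replicate 1 or 3 left 8 members of this list called lower.

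Nos2, the inducible nitric oxide synthase gene, was at 176, 205, 175 and 158 CPM at 3 h and 999.6, 863, 1121 and 1091 CPM at 6 h (2.51 ± 0.16). Slc7a2, an arginine transporter gene, and Ass1, which regenerates arginine, rose by 1.36 ± 0.32 and 1.32 ± 0.15, while Srm and Amd1 of polyamine synthesis fell, with steps of −1.19 ± 0.20 and −1.08 ± 0.11. Of 15 arginine, nitric oxide and polyamine genes 5 rose and 5 fell, beside 19% of all genes tested that rose and 21.6% that fell. Acod1, which makes itaconate, went from 2199, 2557, 1879 and 2257 CPM to 3644, 4176, 3870.3 and 4485 CPM (0.86 ± 0.10). It was the 1 of 26 genes of the itaconate, TCA cycle and pyruvate dehydrogenase list that rose. In that list 4 fell, among them Idh1 (−0.91 ± 0.11) and Fh1 (−0.64 ± 0.092), and 15 were called lower with library totals alone and 2 without 3 h replicate 1. Of 19 glycolysis and glucose transport genes 11 rose and 1 fell, with 7 called higher with library totals alone. Pfkfb3, which makes the activator of phosphofructokinase, rose from 134 to 445 CPM (1.73 ± 0.13), and Hk3 and Hk1 by 0.95 ± 0.16 and 0.76 ± 0.094, while Hk2 fell, with a step of −0.66 ± 0.10. Of 38 nuclear respiratory chain genes 3 rose, Cycs by 0.85 ± 0.11, Ndufs3 by 0.39 ± 0.095 and Uqcrfs1 by 0.26 ± 0.090, and 0 fell. The call of Uqcrfs1 was lost with upper-quartile scaling, library totals alone and no filter, and without 6 h replicate 2 or 3 (adjusted p = 0.0819 and 0.0827), and that of Ndufs3 with library totals alone. That count depended on the setting: 5 rose by DESeq2, with relative log expression scaling, in the fit of 40 libraries and with the replicate block, 10 in the fit of 8 libraries, and 1 with library totals alone, with which 7 fell.

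Lipid and redox genes went in both directions, as did all genes tested, of which 19% rose and 21.6% fell. Counts near those shares do not set a list apart. In cholesterol and fatty acid synthesis 6 of 28 rose and 6 fell (4 and 15 with library totals alone). Hmgcs1 rose by 0.71 ± 0.13, and Fasn and Scd2 fell, with steps of −1.36 ± 0.11 and −1.55 ± 0.14. Among 13 cholesterol efflux and LXR target genes 6 rose and 3 fell, with Abcg1, a cholesterol exporter gene, at 1.07 ± 0.13. Of 19 NRF2 target genes 5 rose and 4 fell. Keap1, the gene for the repressor of NRF2, rose by 1.14 ± 0.12 and Txn1 by 0.65 ± 0.13, while Gclc, Slc7a11 and Txnrd1 fell, with steps of −1.19 ± 0.13, −0.84 ± 0.16 and −0.67 ± 0.090. Of 12 phagocyte oxidase and superoxide defence genes 4 rose and 1 fell. Sod2, the mitochondrial superoxide dismutase gene, rose by 0.89 ± 0.088 and Cybb, a core subunit of the phagocyte oxidase, by 0.55 ± 0.082. In the prostaglandin and leukotriene pathway 3 of 15 rose and 4 fell (2 fell without 3 h replicate 3). Ptges, the prostaglandin E synthase gene, went from 22.8, 30.4, 16.1 and 23.0 CPM to 106, 124, 58.5 and 95.1 CPM (2.08 ± 0.24), and Pla2g4a and Ptgs2 rose by 1.76 ± 0.13 and 0.90 ± 0.19. Ptger2, a receptor gene for prostaglandin E2, went from 32.6 to 45.7 CPM in the 3 h libraries to 3.81, 5.69, 3.44 and 4.13 CPM (−3.19 ± 0.25).

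Stress and degradation lists were mixed, as were all genes tested, of which 19% rose and 21.6% fell. Of 22 unfolded protein response genes 4 rose and 4 fell (1 and 10 with library totals alone, and 2 rose with upper-quartile scaling), with Ddit3 at 1.18 ± 0.15 and Herpud1 at −1.26 ± 0.12. Of 16 heat shock genes 4 rose and 5 fell (2 and 9), with Dnajb1 at 0.91 ± 0.091 and Dnajb4 at −0.71 ± 0.11. Of 28 lysosome and cathepsin genes 7 rose and 3 fell (5 and 10). Ctsc, the cathepsin that activates serine proteases, rose from 585 to 1792 CPM (1.61 ± 0.10).

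Cfb, complement factor B, went from 78.9, 83.1, 66.7 and 68.2 CPM to 441, 504, 369 and 420.0 CPM (2.54 ± 0.12), and C3 rose by 1.11 ± 0.11. These were the 2 of 11 complement genes that rose, and 4 rose with the replicate block. Of all genes tested 19% rose and 21.6% fell, and counts near those shares do not set a list apart. Of 13 matrix proteases and inhibitors 4 rose and 2 fell. Adamts4, an aggrecan-cleaving protease gene, went from 129, 120.3, 133 and 97.0 CPM to 17.0, 20.4, 22.6 and 11.0 CPM (−2.77 ± 0.17), while Mmp25 and Mmp14 rose by 1.60 ± 0.14 and 1.17 ± 0.13. In activin and TGF-beta signalling 4 of 17 rose and 6 fell (3 and 10 with library totals alone). Smad3, a receptor-activated transducer, went from 9.89, 9.02, 11.7 and 8.53 CPM to 1.79, 0, 2.29 and 0.827 CPM (−2.91 ± 0.31). Tgfbr1, a receptor gene, fell, with a step of −1.46 ± 0.14, and Inhba, which encodes an activin subunit, rose by 0.65 ± 0.12.

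More macrophage receptors and lineage factors rose than fell. Of 25 such genes 13 rose and 1 fell, with a median of 0.56, beside 19% and 21.6% of all genes tested. With library totals alone 12 were higher and 7 lower. Fcgr1, the high-affinity Fc receptor gene, went from 130.0, 112, 106 and 104 CPM to 589, 524, 566 and 494 CPM (2.26 ± 0.10). Maf rose by 1.91 ± 0.081 and Fcgr4 by 1.82 ± 0.11. Cebpa, a myeloid lineage factor gene, went from 9.89, 25.1, 25.6 and 18.7 CPM to 4.49, 6.02, 6.31 and 4.13 CPM and was the 1 member that fell (−1.95 ± 0.25). Of 11 KLF and ID regulators 3 rose and 4 fell, which does not set this list apart from all genes tested. Klf4 and Klf6 rose by 1.06 ± 0.15 and 0.63 ± 0.11 and Klf10 and Klf2 fell, with steps of −1.51 ± 0.23 and −1.04 ± 0.12. All 10 monocyte markers were measured, and their summed level went from 212.7 to 283 CPM at 3 h to 799.8 to 841 CPM at 6 h. Of these 10, 7 rose, led by Ms4a4c (3.41 ± 0.099) and Vcan (2.57 ± 0.18), and 3 did not pass. Among 13 neutrophil markers 5 were measured and 1, Lcn2, rose (2.96 ± 0.24), while the summed level was 212.5 to 285.5 CPM at 3 h and 247.1 to 307.4 CPM at 6 h, with 2 genes at 0. The 10 osteoclast markers summed to 304.9 to 412.4 CPM and 221 to 301.7 CPM, and of the 7 that were measured 1 was higher and 3 lower. Dendritic cell markers summed to 98.2 to 123 CPM and 194.9 to 253.9 CPM. Of 10 such markers 5 were measured, of which 3 rose and 1 fell, and Bst2 is also on the antiviral effector list. The part of other cells in these results was not tested.

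The largest single rises and falls were not all in these lists. Clic5, a chloride channel family gene, was at 1.88, 1.13, 1.58 and 2.41 CPM at 3 h and 65.3, 67.2, 70.8 and 70.8 CPM at 6 h, the highest step among genes that averaged 5 CPM or more over the 8 libraries and did not overlap (5.24 ± 0.20 log2). Angpt1, which encodes a ligand of the endothelial receptor Tie2, was at 0.471, 0, 0.144 and 0.927 CPM and 18.6, 11.4, 16.9 and 11.6 CPM (5.12 ± 0.53), but it had 8 counts over the 3 h libraries, so the size of its step is uncertain. Il12rb1, a receptor subunit for IL-12 and IL-23, rose by 4.07 ± 0.23. Pde7b, a cyclic AMP phosphodiesterase gene, rose by 3.19 ± 0.34, Apol9b by 3.13 ± 0.33 and the unnamed locus AC166110.3 by 3.50 ± 0.21. At the other end Frmd6 was at 51.3, 51.3, 53.7 and 53.4 CPM and 3.14, 4.01, 4.59 and 3.58 CPM (−3.79 ± 0.20). Rnd1 and Rhof, genes of small GTPases that act on the cytoskeleton, fell, with steps of −3.44 ± 0.20 and −3.07 ± 0.44. Plat, the tissue plasminogen activator gene, fell, with a step of −3.18 ± 0.27, and Lpin1, a phosphatidate phosphatase gene, at −3.28 ± 0.26. Phldb1, Tcp11l2 and Zdhhc14 fell, with steps of −3.37 ± 0.19, −3.14 ± 0.35 and −3.01 ± 0.32. By loss in CPM, Tnfaip2 led with 1985, 2104, 1792 and 2025 CPM at 3 h and 870.1, 1021, 1044 and 1116 CPM at 6 h (−0.97 ± 0.095), followed by Atp2b1, a calcium pump gene (−0.72 ± 0.13), Cxcl2, Top1 (−0.79 ± 0.10), Sqstm1, which encodes the autophagy receptor p62 (−0.31 ± 0.079), and the adhesion gene Icam1 (−0.73 ± 0.10).

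**Figure D4:**
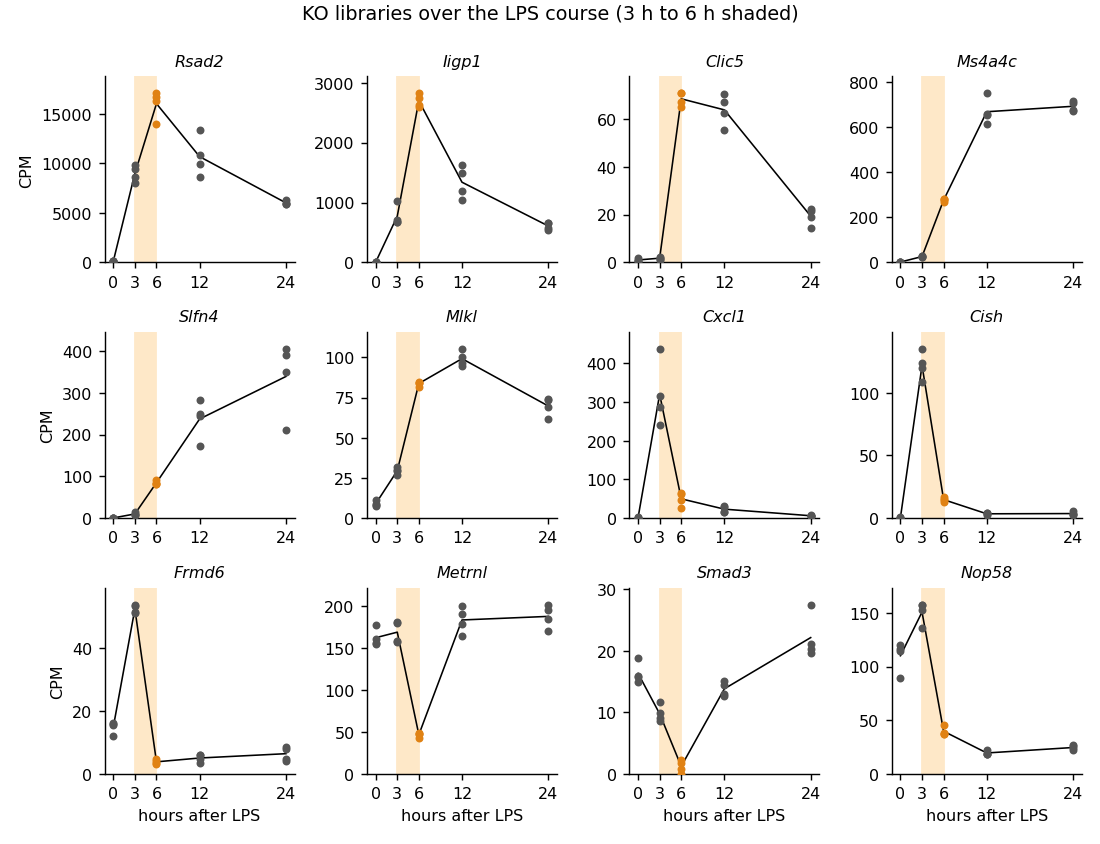
Points are single KO libraries in CPM (y, from 0) against hours after LPS (x) for 12 genes, lines join the means of 4 libraries, and the step from 3 to 6 h is shaded with the 6 h libraries in orange. Rsad2 and Iigp1 were highest at 6 h, Ms4a4c and Slfn4 at 24 h, Cxcl1 and Cish peaked at 3 h, and Metrnl and Smad3 were lowest at 6 h.

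The 6 h point was a turning point for some genes and a stage on the way for others. Of the 2282 genes that rose, 1100 (48.2%) had their highest mean of the 5 times at 6 h, 735 (32.21%) at 12 h, 395 (17.31%) at 24 h and 52 at 0 h. Of the 2603 that fell, 1238 (47.56%) had their lowest mean at 6 h. Their highest mean was at 0 h for 1582 (60.78%), at 3 h for 652 (25.05%) and at 24 h for 322. These shares rest on the same libraries as the calls and are given as a description. Rsad2 ran at 115, 8982, 16049.8, 10691 and 6018 CPM from 0 to 24 h, and Slfn4 at 0.465, 10.0, 84.9, 238 and 339.6 CPM. The first was highest at 6 h and the second at 24 h. Cish ran at 0.481, 122, 14.8, 3.45 and 3.64 CPM, a single peak at 3 h. Metrnl, a secreted factor gene, ran at 163, 169, 46.8, 184 and 188 CPM, and Smad3 at 16.3, 9.78, 1.23, 13.8 and 22.2 CPM, both with a dip at 6 h. For scale, 5853 genes were called between 0 and 3 h (48.6%) and 5391 between 6 and 12 h (44.8%), comparisons that share libraries with the step described here.

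In WT 5139 of 12151 genes tested were called between 3 and 6 h (42.3%). Of 11875 genes tested in both genotypes 4855 were called in KO, 5091 in WT and 4004 in both, which is 82.5% of the KO list and 78.6% of the WT list, all 4004 in the same direction. Across those genes the log2 steps had a Pearson r of 0.874, given as a description because genes are not independent replicates. A direct test of whether the step differed between KO and WT, over the 16 libraries of 3 and 6 h, called 0 of 11358 genes (0%) by edgeR. That fit held no term for the replicate number, and 542 genes had an unadjusted p under 0.05. DESeq2 called 1, a predicted gene. The edgeR fit with the replicate number within genotype as a replicate block called 4, which were that gene, Mxd1, Tiam1 and Vcan. All 4 had a higher step in KO, and the last 3 are named after their values were seen. The KO minus WT steps of Mxd1, Tiam1 and Vcan in that fit were 0.56, 0.59 and 0.66 (adjusted p = 0.014, 0.0362 and 0.014). Without a filter on low counts 30 genes were called.

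**Figure D5:**
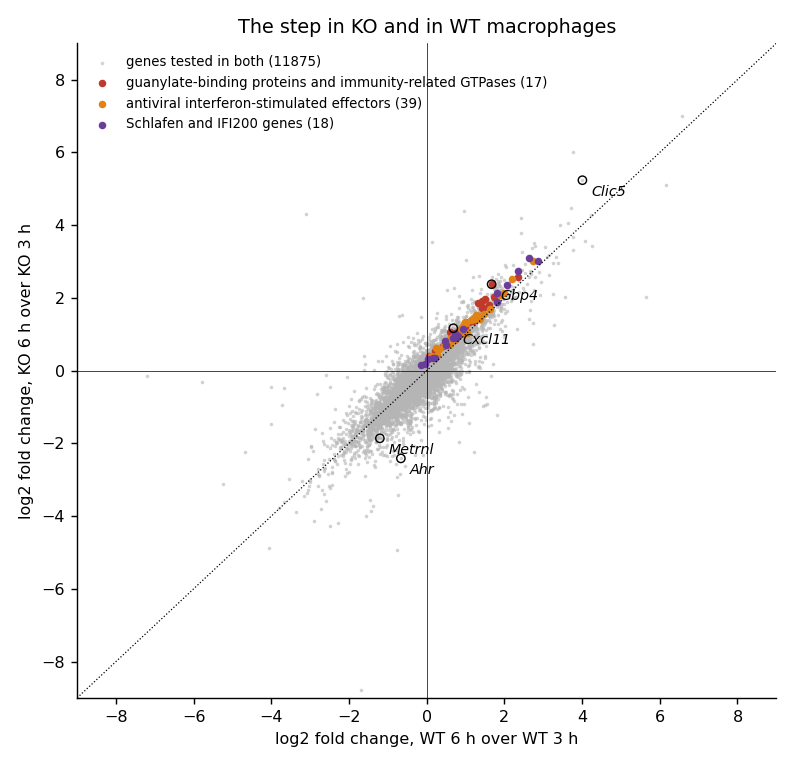
Each point is 1 of 11875 genes tested in both genotypes, by its log2 fold change of 6 h over 3 h in WT (x) and KO (y), with the line of equal steps dotted and members of 3 interferon lists coloured. Points follow the line (Pearson r of 0.874), and nearly all coloured members lie on its upper side, while Metrnl and Ahr lie below it.

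The interferon lists leaned one way in that comparison without any member passing the test. The KO step was above the WT step for 39 of 39 antiviral effectors, 17 of 17 guanylate-binding proteins and GTPases and 18 of 18 Schlafen and IFI200 genes, against 51.31% of all genes. The median differences were 0.24, 0.30 and 0.22 log2, beside 0.01 over all genes. At 3 h KO was above WT for 12, 3 and 2 members of these lists, with medians of −0.10, −0.08 and −0.08 log2, and at 6 h for 36, 17 and 18, with medians of 0.14, 0.25 and 0.17. At 6 h 5, 2 and 0 of them were called between KO and WT, where 1.19% of all 11358 genes tested were, and at 3 h 0 were, where 0.572% of all were. Gbp4 stepped by 2.37 ± 0.13 in KO and 1.67 ± 0.17 in WT, a difference of 0.71 ± 0.24 (adjusted p = 0.928), and Ifit1bl1 by 3.01 ± 0.092 and 2.74 ± 0.21 (0.28 ± 0.20, adjusted p = 1). The KO step was also above the WT step for 17 of 19 NRF2 targets and 11 of 12 SOCS family and other inhibitor genes. Among the 10 monocyte markers it was above for 9, with a median difference of 0.31 log2, and their part in the lean of the interferon lists was not tested. Members of a list come from the same libraries, are not replicates and were chosen with earlier results of these data known.

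The 3 genes with the smallest p for a different step were Metrnl, Ahr and Cxcl11. Metrnl was at 157, 158, 181 and 180.4 CPM at 3 h and 48.0, 48.5, 42.7 and 48.0 CPM at 6 h in KO, a step of −1.86 ± 0.090 beside −1.21 ± 0.090 in WT. The difference was −0.65 ± 0.12 log2 (adjusted p = 0.262), and it passed the test without WT 3 h replicate 1 (adjusted p = 0.0329). Ahr, the aryl hydrocarbon receptor gene, was at 7.54, 10.7, 8.93 and 8.53 CPM and 1.12, 1.34, 2.01 and 2.20 CPM in KO, and stepped at −2.41 ± 0.35 beside −0.67 ± 0.29 in WT, a difference of −1.74 ± 0.35 (adjusted p = 0.278). Cxcl11 stepped by 1.16 ± 0.13 beside 0.69 ± 0.19, a difference of 0.48 ± 0.11 (adjusted p = 0.707). Without a filter on low counts all 3 differences passed the test (adjusted p = 0.00451, 0.0489 and 0.0177). Otulin stepped at −0.07 ± 0.12 in KO and −0.21 ± 0.11 in WT, and Lyz2 by 0.15 ± 0.11 and 0.11 ± 0.12. Among cytokines Tnf stepped at −0.30 ± 0.19, Il6 at −0.08 ± 0.35 and Ifnb1 at −1.57 ± 0.51 in WT, with differences from KO of 0.01 ± 0.14, 0.42 ± 0.40 and −0.39 ± 0.56. An adjusted p above 0.05 here does not show that the genotypes took the same step, since the SE of these differences reached 0.56 log2 for Ifnb1.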

How the data were processed

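The series measured RNA of cultured macrophages by 3′ tag sequencing, and the labels call the replicates biological. The authors deposited 1 table of RSEM expected counts per gene and library, which held whole numbers throughout. Per the submitters' processing notes the tools were STAR 2.7.10a, RSEM 1.3.3, UMI-tools 1.1.2, cutadapt 3.7 and FastQC 0.11.9, with the build GRCm39. Not given in the sources used here are their settings, the use of strand and the handling of molecular identifiers, so reads of overlapping genes on opposite strands and of near-identical copies may be shared. Of 57010 gene identifiers 52029 had a symbol.

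Counts were analysed in R 4.3.3 with edgeR 4.0.16 (limma 3.58.1): filterByExpr at a minimum count of 10, TMM scaling, and a robust quasi-likelihood fit over the 20 KO libraries, so that all times share 1 estimate of the spread, with the contrast of 6 h against 3 h, a prior count of 0.125 and Benjamini-Hochberg adjustment at 0.05. The SE was taken as the absolute log2 fold change divided by the root of the F statistic. CPM were scaled by TMM over all 40 libraries. The difference between the KO and WT steps was fitted on the 16 libraries of 3 and 6 h. These main fits and their SE left out the pairing by replicate number, which entered only in the replicate block. The fits were tested on simulated data. Gene lists are described by counts and medians, and their members and the tests were chosen with earlier results of these data known.

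Names come from these sets: 9 genes of the pathway under study; the 12 highest and 12 lowest steps of called genes that averaged 5 CPM or more without overlap of the times; the 6 largest gains and 6 largest losses in CPM; of each list up to 5 called members with the largest steps and up to 2 that went against most, or 2 by p where none was called; and the 3 smallest p for a different step in KO and WT. Predicted genes and genes without a symbol were counted and not named, and some members are not reported here.

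Library totals were 3615155 to 6829303 counts, which limits low genes most. Replicates of 1 group differed by more than sampling noise (chi-square per degree of freedom 2.34 to 5.81 over 12 pairs). The replicate numbers pair the samples: deviations from the group means of same-numbered libraries at 3 and 6 h correlated at 0.208, 0.193, 0.31 and 0.33 over 9455 genes, and those of differently numbered ones at −0.249 to 0.0361. KO replicate 3 also differed from the others at both times in Xist (0.732 and 0.955 CPM against 312.1 to 583.9 CPM). Its Y-linked genes summed to 202.5 and 163.1 CPM, against 0 to 0.277 CPM in the others. By these genes KO replicate 3 was male and the other KO replicates were female. The part of sex in the KO against WT values was not tested. Alternatives were RLE scaling, upper-quartile scaling, library totals alone, no filter, fits of 8 or 40 libraries, the replicate block, DESeq2 1.42.0 and leaving out each library. Promoter sequences were matched by symbol to RefSeq windows of GRCm38.p6, and their coordinates are of that build.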

Additional observations from a re-analysis of the deposited data

Results flagged for a closer look

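In 28 of 424 sets of 4 libraries, the 3 h and the 6 h set of each named gene, 1 library stood apart from the other 3 by Dixon's ratio. Chance alone gives about 1 in 20 such sets. Gbp4 was at 316 CPM in 6 h replicate 4 and at 300.1 to 303 CPM in the others. Ifnb1 was at 11.1 CPM in 3 h replicate 1 and at 8.79 to 9.09 CPM in the others. Iigp1 was at 1022 CPM in 3 h replicate 1 and at 681 to 700.0 CPM in the others. Metrnl was at 42.7 CPM in 6 h replicate 3 and at 48.0 to 48.5 CPM in the others. Nop58 was at 45.5 CPM in 6 h replicate 4 and at 37.5 to 38.6 CPM in the others. Slc7a2 was at 222 CPM in 6 h replicate 4 and at 428 to 439 CPM in the others. Tlr2 was at 609 CPM in 3 h replicate 2 and at 459 to 478 CPM in the others. Tnf was at 578 CPM in 6 h replicate 1 and at 659.8 to 668 CPM in the others. 

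The rest are given as the value of the library that stood apart. In 3 h replicate 1 they were Cdkn2d at 56.1 CPM (45.4 to 46.4 in the others) and Lpin1 at 8.24 CPM (13.8 to 14.8 in the others). In 3 h replicate 2 they were Rrm2 at 40.9 CPM (34.2 to 35.3 in the others) and Tnfrsf10b at 3.38 CPM (6.12 to 6.19 in the others). In 3 h replicate 4 they were Cdk4 at 35.6 CPM (30.2 to 30.9 in the others) and Wars at 20.2 CPM (17.7 to 18.0 in the others). In 6 h replicate 1 they were Aspm at 2.69 CPM (5.45 to 5.69 in the others), Il33 at 13.5 CPM (9.92 to 10.3 in the others) and Klf4 at 64.4 CPM (84.0 to 85.3 in the others). In 6 h replicate 2 they were Fasn at 21.7 CPM (26.2 to 26.7 in the others), Osm at 13.4 CPM (16.8 to 17.2 in the others) and Phldb1 at 6.02 CPM (9.20 to 9.46 in the others). In 6 h replicate 3 they were Atp2b1 at 957 CPM (822 to 839 in the others), Dkc1 at 7.74 CPM (9.65 to 9.70 in the others), Gnl3 at 24.9 CPM (18.1 to 19.0 in the others) and Ptpn1 at 292 CPM (330.2 to 333 in the others). In 6 h replicate 4 they were Apol9b at 13.0 CPM (8.75 to 9.46 in the others), H2-T22 at 354 CPM (301 to 304 in the others), Nlrc5 at 171 CPM (157 to 158 in the others) and Tiam1 at 95.4 CPM (134 to 136 in the others).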

How the results depend on the processing

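The count of 4885 changed genes stayed within 1.5 times under every alternative run. It was 4835 with RLE scaling, 5147 with upper-quartile scaling, 5918 with library totals alone, 4718 without a filter, 5116 in the fit of 8 libraries, 5310 in the fit of 40 libraries and 4631 by DESeq2. Leaving out 1 library at a time gave 4295 to 4586, and 3662 of the 4885 (75%) were called in all 8 such fits. With the replicate block 5151 were called, 4850 of them shared with the fit without it. The share of called genes that were higher was 46.7% with TMM, 50.9% with RLE, 37.6% with upper-quartile scaling, 25.2% with library totals alone and 52.5% by DESeq2, but no called gene was called in the opposite direction under these settings. Of 47 list medians 15 changed sign with library totals alone. Among the genes named, Lyz2 changed sign, to −0.069 with library totals alone. The number of genes whose step differed between KO and WT was 0, but 30 without a filter, 4 with the replicate block and 1 by DESeq2, and 0 to 1 when 1 library was left out. The replicate block changed no call of a named gene for the KO step other than that of Il6. Depth limits genes of a few CPM, for which a library holds few tags. The causes of these differences were not tested.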
